A study of Homo sapiens with 4 samples.

Results

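The enzymes that build fatty acids and triglycerides, with the transcription factor that drives many of them, were followed through a berberine treatment of HepG2 cells. The list has 10 gene names, DGAT1, DGAT2, GPAM, LPIN1, AGPAT2, FASN, ACACA, ACACB, ACLY and SREBF1. A probe belonged to it when the array annotation gave it one of these names, and 9 probes of 26423 did so, for 8 of the 10 names. LPIN1 had 2 probes and the other 7 names 1 each. ACACB and ACLY had no probe under these names, so no signal is given for them. The names were chosen by pathway, but after the berberine minus control differences of these data had been seen, with the lower DGAT1 signal known, so every berberine difference of its members below is a description and supports nothing by itself.

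The study asked how berberine, a plant alkaloid, affects HepG2 cells, a human hepatocellular carcinoma line. It used 4 arrays of total RNA, each with 1 Cy5-labelled sample: 2 of cells given 26.95 µM berberine for 24 hours and 2 of cells without it, all grown in DMEM with serum and antibiotics. The description field of the samples names a different experiment, 48 hours of adipocyte-type differentiation with 13.47 µM berberine in the treated samples, and this conflict was not resolved. The labels do not say that replicates came from separate cultures, so any p-value covers the spread of these arrays alone, and that spread may be technical.

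The array carries mouse probes. A value given below for a gene is therefore what the mouse probe of that name read on these samples, and how well it measures the human transcript is not known. Values are whole-number intensities as deposited, or log2(intensity + 1) after quantile normalization, called the log2 level. Median intensities were 77 and 85 in the berberine samples and 90 and 62 in the control samples. Probes named for olfactory receptors, which liver cells are not known for, gave a background scale, chosen with earlier results known: over 543 of them the median log2 level was 6.02 and the 95th percentile 9.23. Of all probes, 7.61% had a mean above that percentile. The hepatocyte marker list had 17 probes, of which 1, for RBP4, lay above it. The other 16 had mean log2 levels from 4.55 for APOH to 8.56 for APOA2. ALB was at 8.35, and AFP, a fetal plasma protein typical of HepG2 cells, at 4.75. The summed intensity of that marker list was 7457 and 10613 in the berberine samples, against 20989 and 16153 in the control samples. The brightest RBP4 probe carried this gap, at 5611 and 8161 with berberine, against 17823 and 13847 in control cells. Its log2 difference was -1.08, while the dimmer RBP4 probes were at -0.15 and -0.22. The other 16 probes of the list summed to 1846 and 2452, against 3166 and 2306, which overlapped. The part of this in the results below was not tested. The 12 adipocyte marker probes, 2 of them above the percentile, summed to 2094 and 3406 with berberine, against 3096 and 4083 in control cells. The brighter CD36 probe held much of those sums, at 611 and 1645, against 1050 and 2461. By log2 difference, 4 of the 12 were higher with berberine and 8 lower, from -1.20 for RETN to 1.00 for FABP4. The 8 fibroblast marker probes, 0 of them above the percentile, summed to 550 and 576, against 571 and 339. Of these 8, 2 were higher with berberine and 6 lower, from -0.36 for PDGFRA to 0.96 for POSTN. No marker of the 3 lists read 0 in any sample.

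Fatty acids are built in the cytosol from acetyl-CoA. ATP citrate lyase (ACLY) supplies it, acetyl-CoA carboxylase (ACACA, with ACACB as a second form tied to mitochondria) turns it into malonyl-CoA, and fatty acid synthase (FASN) joins the units into palmitate. Triglyceride is then assembled on glycerol 3-phosphate: GPAM adds the first acyl chain, AGPAT2 the next, lipins such as LPIN1 remove the phosphate to leave diacylglycerol, and DGAT1 or DGAT2, unrelated in sequence, adds the last chain. SREBF1 encodes SREBP-1, which in liver raises transcription of most of these enzymes in response to insulin, and berberine is widely studied as an agent that lowers blood lipids.

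LPIN1 had the member probe above the background percentile, by a small margin. Its mean log2 level was 9.42 against 9.23, and its mean with berberine was 9.23. The human LPIN1 gene starts transcription at several places. The 250 bases before each of its 3 starts in the RefSeq promoter table (GRCh38.p14, chromosome 2) are shown to give the reader the gene's regulatory sequence, with each GC box, GGGCGG on either strand, in capitals. These windows end at the base before the start. The array's probe sequences were not used here, so no probe was assigned to a start.
LPIN1 upstream start, chr2:11677294-11677543, plus strand: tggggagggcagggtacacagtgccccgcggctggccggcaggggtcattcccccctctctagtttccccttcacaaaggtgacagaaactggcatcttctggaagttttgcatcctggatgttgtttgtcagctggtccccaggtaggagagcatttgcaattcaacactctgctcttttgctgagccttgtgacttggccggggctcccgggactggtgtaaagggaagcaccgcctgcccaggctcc
LPIN1 middle start, chr2:11724065-11724314, plus strand: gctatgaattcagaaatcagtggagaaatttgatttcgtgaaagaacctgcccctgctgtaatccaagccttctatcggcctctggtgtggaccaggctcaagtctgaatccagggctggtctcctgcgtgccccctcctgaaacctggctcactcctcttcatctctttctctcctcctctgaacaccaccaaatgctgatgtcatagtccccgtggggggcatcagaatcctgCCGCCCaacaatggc
LPIN1 downstream start, chr2:11746382-11746631, plus strand: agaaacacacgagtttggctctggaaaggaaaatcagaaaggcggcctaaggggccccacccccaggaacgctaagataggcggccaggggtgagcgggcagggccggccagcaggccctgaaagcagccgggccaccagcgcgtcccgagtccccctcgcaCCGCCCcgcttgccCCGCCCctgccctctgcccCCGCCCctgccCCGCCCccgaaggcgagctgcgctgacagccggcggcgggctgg
The upstream LPIN1 window held 0 GC boxes, the middle one 1 and the downstream one 4, with a GC content of 58.4%, 53.2% and 72.4%. Windows of the same length with a GC box made up 42.6% of all 35116 in the table. Over the 9 windows used here, for 5 members with a probe (LPIN1, AGPAT2, GPAM, ACACA and SREBF1), 7 held a GC box. LPIN1 and ACACA gave 3 of these windows each. Their GC content ran from 43.6% to 81.6% over the 9, against a median of 58% over all windows, and the GC box count was not adjusted for it. The sterol element TCACNCCAC, a form of the SREBP site, and the E-box CACGTG, searched on both strands, were in 0 of these 9 windows, against 0.883% and 6.34% of all windows. With motifs this rare and so few windows, a count of 0 does not show that they are lacking. These letters say nothing about binding elsewhere. DGAT1, DGAT2 and FASN had no window used here.

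DGAT1 stood apart from the other members. The DGAT1 signal was 2.26-fold lower with berberine, and both berberine samples lay well under both controls. The brighter LPIN1 probe was 1.29-fold lower. Signals for SREBF1, AGPAT2, ACACA and FASN differed between the groups by less than their SE, and so did the dimmer LPIN1 probe, while DGAT2 and GPAM differed by somewhat more than theirs. In RNA from whole cultures, fewer cells with a transcript and less of it per cell cannot be told apart. No member was higher with berberine on the log2 level.

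**Figure D1:**
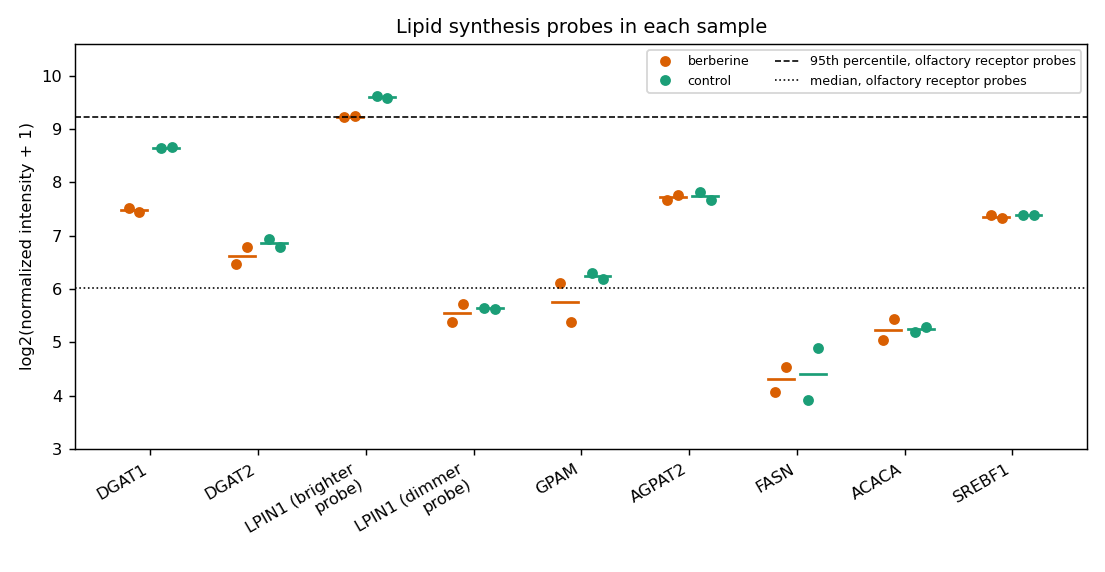
The log2 level, log2(quantile-normalized intensity + 1), of each of the 9 probes in each sample, with berberine samples left of control samples, short lines at the group means, and horizontal lines at the olfactory receptor median (6.02) and 95th percentile (9.23). DGAT1 shows the widest gap between groups, and the brighter LPIN1 probe is the one with a mean above the dashed line.

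SREBF1, the regulator, read 152 and 169 in the berberine samples, against 191 and 151 in the control samples. On the log2 level these were 7.39 and 7.33 with berberine, against 7.39 and 7.39 in control cells. The 4 values nearly coincided after normalization, and as deposited the groups overlapped. The berberine minus control difference was -0.03 with a moderated SE of 0.11, the SE that limma computes after pooling spread over all probes.

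The fatty acid synthesis enzymes gave dim signals. ACACA, the carboxylase that makes malonyl-CoA, read 38 and 46 with berberine, against 43 and 22 in control cells, or log2 levels of 5.04 and 5.43, against 5.20 and 5.29. The control values lay between the berberine values, with a difference of -0.01 (moderated SE 0.18). FASN, the synthase itself, read 20 and 26 with berberine, against 21 and 12 in control cells. Its log2 levels were 4.07 and 4.54 with berberine, against 3.91 and 4.89 in control cells, so the control samples enclosed both berberine samples. The FASN difference was -0.10 with a moderated SE of 0.40, and both of these enzymes had means below the olfactory receptor median of 6.02. The sign turned with the scaling for both: as deposited, ACACA was at 0.43 and FASN at 0.49, and with median centring at 0.32 and 0.38. It also turned with the samples used, from -0.20 without berberine 2 to 0.19 without berberine 1 for ACACA, and from -0.59 without control 1 to 0.40 without control 2 for FASN.

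The first steps of triglyceride assembly were measured by GPAM and AGPAT2. GPAM, the mitochondrial glycerol-3-phosphate acyltransferase, read 68 and 45 with berberine, against 90 and 54 in control cells, which overlapped. The GPAM log2 levels were 6.12 and 5.39 with berberine, against 6.31 and 6.18 in control cells, where both berberine samples were lower. The GPAM difference was -0.49 (moderated SE 0.28) and depended on the berberine samples, at -0.86 without berberine 1 and -0.13 without berberine 2. AGPAT2, whose loss in people causes a congenital lipodystrophy, read 182 and 222 with berberine, against 260 and 190 in control cells. Its log2 levels of 7.68 and 7.76 with berberine and 7.82 and 7.68 in control cells overlapped, with a difference of -0.03 (moderated SE 0.13) that ranged from -0.10 to 0.04 without single samples.

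LPIN1, the phosphatidate phosphatase that also acts as a transcriptional coactivator in mouse liver, was read by 2 probes that did not show the same thing. The brighter probe read 506 and 607 with berberine, against 905 and 767 in control cells. Its log2 levels were 9.23 and 9.24 with berberine, against 9.62 and 9.58 in control cells, and the groups did not overlap on either scale. The difference was -0.36 (moderated SE 0.11), and it was -0.59 as deposited and -0.70 with median centring. The dimmer probe read 46 and 56 with berberine, against 60 and 32 in control cells. These gave log2 levels of 5.39 and 5.72 with berberine, against 5.65 and 5.62 in control cells, so the berberine samples enclosed the controls. Its difference was -0.08 (moderated SE 0.16), turning to 0.21 as deposited, 0.09 with median centring and 0.08 without berberine 1, and its mean lay below the olfactory receptor median.

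The last step has an enzyme from each of 2 families. DGAT1, the acyltransferase of the endoplasmic reticulum related to sterol acyltransferases, read 164 and 181 with berberine, against 461 and 396 in control cells. After normalization the log2 levels were 7.53 and 7.44 with berberine, against 8.65 and 8.66 in control cells, a difference of -1.17 with a moderated SE of 0.12. Both berberine samples were lower than both controls on either scale, and the gap was many times the spread within a group. The group means, 7.48 ± 0.06 with berberine and 8.66 ± 0.01 in control cells (SD, n = 2 each), both lay below 9.23, so DGAT1 was not separated from the background range of olfactory receptor probes. The difference was -1.31 as deposited and -1.42 with median centring, and ranged from -1.22 to -1.13 when single samples were left out. Of all 26423 probes, 188, or 0.712%, had a difference as low as that of DGAT1 or lower. DGAT2, without which mice have very little triglyceride, read 86 and 114 with berberine, against 137 and 92 in control cells. Its log2 levels were 6.47 and 6.78 with berberine, against 6.93 and 6.78 in control cells, nearly touching, and the deposited values overlapped. The DGAT2 difference was -0.23 (moderated SE 0.16), and it was -0.08 without berberine 1 and -0.39 without berberine 2. The difference between the DGAT1 and DGAT2 responses was not tested.

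**Figure D2:**
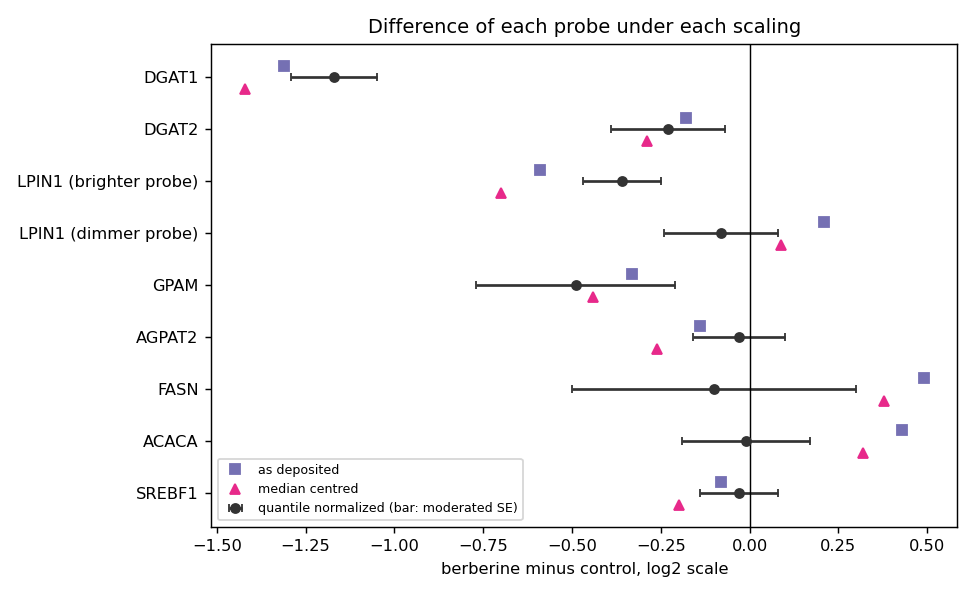
The berberine minus control difference of each probe on the log2 scale under 3 scalings, with a bar of 1 moderated SE on the quantile-normalized value. DGAT1 lies between -1.42 and -1.17 under all 3, while ACACA, FASN and the dimmer LPIN1 probe change sign.

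As a group, the 9 probes had a median difference of -0.10, against -0.01 over all probes. All 9 differences lay below 0 on the log2 level, 5 of them smaller than their own moderated SE, while 6 lay below 0 and 3 above it both as deposited and with median centring. As deposited, the median difference over all probes was itself 0.11, which median centring removes. Both berberine samples were below both controls for 4 of the 9 probes on the log2 level, where 22.5% of all probes showed that, and for 2 of the 9 as deposited (DGAT1 and the brighter LPIN1 probe), where 11.1% of all probes did.

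Each probe was also fitted with limma (lmFit and eBayes, Benjamini-Hochberg adjustment over all 26423 probes). At an adjusted p threshold of 0.05, 0 of the 9 probes passed, where 0% of all probes did. At an unadjusted limma p under 0.05 there were 2 of the 9, DGAT1 and the brighter LPIN1 probe, and 3101 of all 26423 probes. Adjusted limma p-values were 0.14 for DGAT1, 0.384 for the brighter LPIN1 probe, and 0.563 to 0.991 for the other 7. With limma's variance allowed to follow signal intensity (the trend fit), 1 of the 9 passed, DGAT1 at an adjusted limma p of 0.0169, where 0.367% of all probes passed in the lower direction. With a pseudocount of 50 the main fit called DGAT1 as well, where 0.337% of all probes passed as lower, and so did the trend fit with 1 row per gene name (0.501% of names), on values as deposited (0.844% of probes) and after median centring (0.636%). The trend fit on values as deposited gave all probes of a brightness 1 variance and took no account of a probe's own replicates, so its calls carry no more weight than the size of the difference. With 1 sample left out the fits set 2 arrays against 1 and called 0 of all 26423 probes, so they say nothing about the DGAT1 call. Since the list was chosen with this comparison known, nothing is read from these counts. An exact permutation test of a single probe in this design cannot go below p = 0.333.

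**Figure D3:**
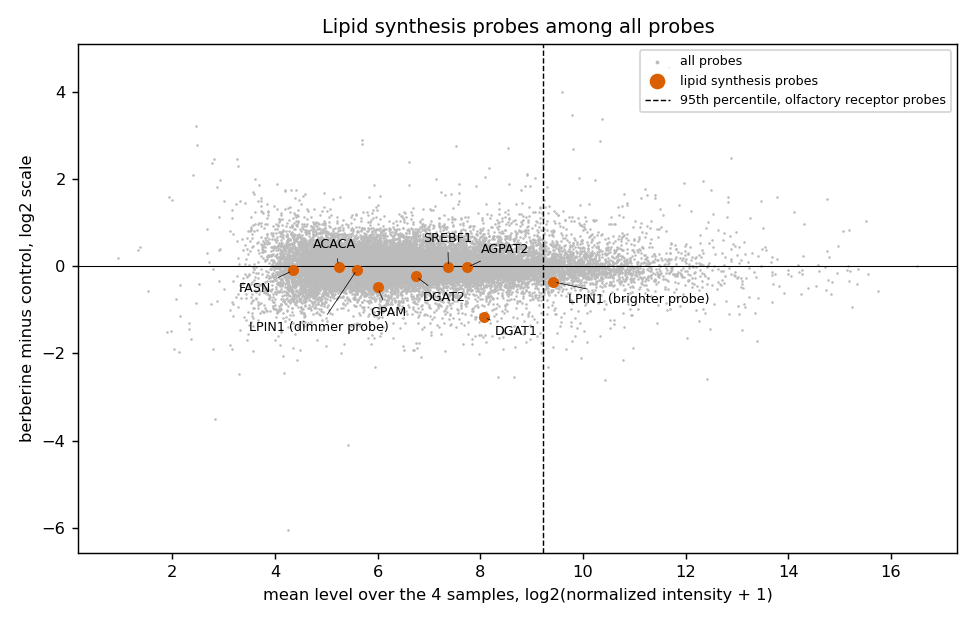
The berberine minus control difference (log2 scale) against the mean log2 level over the 4 samples for all 26423 probes (grey), with the 9 lipid synthesis probes in orange and the olfactory receptor 95th percentile (9.23) as a dashed line. DGAT1 sits toward the lower edge of the probes of its brightness, and the others lie inside the bulk.

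The other genes around this pathway were taken from 4 lists covering 75 names, of which 68 had a probe, 73 probes in all. None of the 73 passed the main limma fit, where 0% of all probes passed. In the trend fit 2 were higher with berberine, where 0.704% of all probes passed in that direction, and 0 were lower. The first was ACSL4, an acyl-CoA synthetase that prefers arachidonic acid and activates fatty acids for glycerolipid synthesis. It read 2329 and 2585 with berberine, against 1410 and 1199 in control cells, a difference of 1.13 (moderated SE 0.12, adjusted limma p 0.15 in the main fit and 0.0102 in the trend fit). Its mean log2 level of 10.79 lay above 9.23. The second was MID1IP1, a small protein that activates acetyl-CoA carboxylase by promoting its polymerization, at 220 and 240 with berberine, against 137 and 91 in control cells. The MID1IP1 difference was 1.08 (moderated SE 0.14, adjusted limma p 0.165 in the main fit and 0.0372 in the trend fit), and its mean log2 level of 7.38 lay below 9.23. In the trend fit ACSL4 was at an adjusted limma p of 0.0917 with median centring and MID1IP1 at 0.165 as deposited, where their differences were 0.80 and 1.03. Without single samples the difference was 1.08 to 1.17 for ACSL4 and 0.99 to 1.18 for MID1IP1.

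By list, fatty acid synthesis (20 probes) had a median difference of 0.16, glycerolipid synthesis (18 probes) -0.01, regulators (15 probes) -0.11, and lipid droplets, breakdown and export (20 probes) -0.15. Beside MID1IP1, the named gene of the first list was ELOVL5, an elongase of polyunsaturated fatty acids, at 0.49 (moderated SE 0.12). Beside ACSL4, that of glycerolipid synthesis was MOGAT1, which acylates monoacylglycerol, at -0.40 (moderated SE 0.16). Among regulators, SREBF2, the cholesterol counterpart of SREBF1, read 249 and 241 with berberine, against 480 and 1795 in control cells. The SREBF2 controls differed widely from each other, so its difference of -1.75 had a moderated SE of 0.76, and it was -0.69 without control 2 and -2.81 without control 1. USF2, an E-box factor that acts on lipogenic promoters, was at -0.27 (moderated SE 0.15). In the last list PLIN5, a droplet coat protein, was at 0.46 and LIPE, hormone-sensitive lipase, at -0.39 (moderated SE 0.12 each). ELOVL5, MOGAT1, SREBF2, USF2, PLIN5 and LIPE had mean log2 levels from 6.66 to 8.89, all below 9.23. The MOGAT1 values as deposited overlapped, at 77 and 104 with berberine, against 127 and 102 in control cells. Apart from ACSL4 and MID1IP1, none of the named genes passed the trend fit on the log2 level, and no probe passed the main fit. SREBF2 did pass the trend fit on values as deposited (limma adjusted p = 2.61e-09), despite controls of 480 and 1795, in the fit that took no account of a probe's own replicates.

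**Figure D4:**
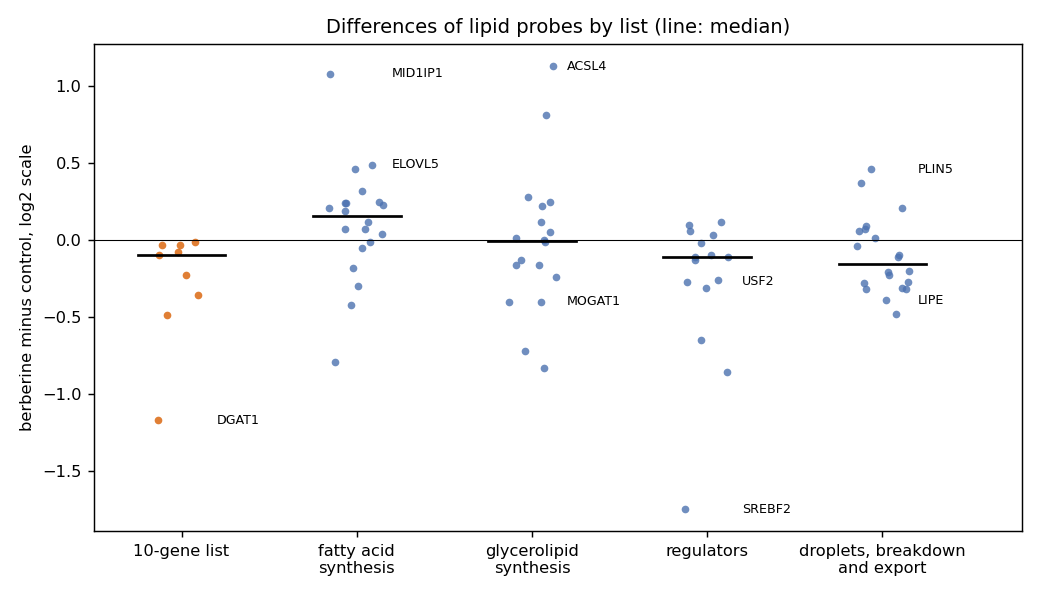
The berberine minus control difference (log2 scale) of every probe of the 10-gene list and of the 4 wider lists, 1 point a probe, with a line at each median and the genes of the naming rule labelled, together with DGAT1. The medians lie between -0.15 and 0.16, with DGAT1, SREBF2, MID1IP1 and ACSL4 farthest from 0.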

How the data were processed

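The deposited table held intensity values on a linear scale for 26423 probes in 4 samples. Cy5 labelling is given per the labels' protocols, while the scanner, the software and any background or normalization step were not given in the sources used here. Negative values stood in 269 probes of control 2, 11 of berberine 2 and 1 of berberine 1. Gene names came from the platform annotation, which named 20377 probes. Intensities were quantile normalized, floored at 0 and taken as log2(value + 1). Every probe was fitted with limma 3.58.1 in R 4.3.3 (2 residual degrees of freedom, no block, 2-sided, Benjamini-Hochberg adjustment). The fit was tested on simulated data. There, probes of similar brightness had the same spread, so that test does not cover spread that differs between such probes. SDs are over 2 samples, and the number of arrays limits the precision. Human promoter windows came from RefSeq. Tables and figures used pandas 2.3.3 and matplotlib 3.10.9.

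The members and lists were chosen with earlier results of these data known. Every member probe is named, and from each wider list the 2 probes with the largest difference among those whose groups did not overlap and whose mean exceeded the median of all probes (6.33). RBP4, AFP, ALB, APOH, APOA2, CD36, RETN, FABP4, PDGFRA and POSTN are named beside these, after their values were seen. Same-numbered samples deviated together only weakly (r = 0.084 over all probes), so the numbers were not taken to pair samples. Alternatives were other scalings, a filter on the dimmest 30% of probes, a pseudocount of 50, other variance models, 1 row per gene name, a replicate block and each sample left out.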

Additional observations from a re-analysis of the deposited data

How the results depend on the processing

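The count of members past the threshold was 0 in the main fit, 0 without any single sample (from 0 to 0, in fits of 2 arrays against 1 that called 0 of all probes), and 1, DGAT1, with a pseudocount of 50 and in the trend fit. It was also 1 in the trend fit with 1 row per gene, on values as deposited and with median centring, settings chosen after seeing the data, like the trend fit without single samples. For the wider lists the count was 0 in the main fit and without any single sample, and 2 with a pseudocount of 50 and in the trend fit. The members' median difference was -0.10, ranged from -0.24 to -0.06 without single samples, was -0.26 with median centring, -0.14 as deposited, -0.04 with a pseudocount of 50, -0.17 with the brightest probe and -0.16 with the mean of the probes per gene, and was -0.30 without the dimmest 30% of probes, which left 6 member probes. With the replicate number as a block, 0 members and 0 probes of the wider lists passed and the median was -0.10. Of the single-member differences under the other settings, 94 moved by less than the spread between replicates and 18 by as much or more. That count is no measure of stability. The other variance models, the block and the filter leave a difference unchanged by design. Leaving out 1 sample cannot shift it beyond that spread. Most of the larger moves came with the other scalings. The differences of DGAT1, DGAT2, GPAM and the brighter LPIN1 probe lay below 0 under every setting, as did that of SREBF1, at -0.20 to -0.00. Signal over background limits the reading: 8 of the 9 probes had means inside the olfactory receptor range.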
